A study of Mus musculus with 24 samples.

Results

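Villi of the mouse small intestine that had lost E2f1, E2f2, E2f3 and Rb were compared with villi that had lost the 3 E2f genes alone, to describe what loss of Rb changed where these 3 E2f genes were already gone. The compared arrays were the 3 titled QKO villi and the 3 titled TKO villi, 6 of the 24 arrays of the series, and 18193 genes were measured on each, with 1 probe set per gene (that with the highest mean over all arrays). Per the labels, the QKO intestines were E2f1-/-, E2f2-/-, E2f3-/- and Rb-/-, and the TKO intestines carried the same E2f genotypes with Rb not listed as lost, so loss of the 3 E2f genes was common to both groups. Wild-type (WT) and Rb-/- (Rb) villi, 3 arrays each, were used for the same step with the E2f genes in place, and QKO and TKO crypts, 3 arrays each, for the same step below the villus. Every mouse was 2 months old, of strain C57BL/6;FVB and on a normal diet, and every group, controls included, had received beta-naphthoflavone, an agonist of the aryl hydrocarbon receptor, by intraperitoneal injection, with the intestine taken 7 days later. Total RNA extracted with Trizol was labelled with biotin and hybridised to Affymetrix arrays. The driver of the deletions, the cells it acts in and the deleted parts of each gene were not given in the sources used here. Nothing in the labels says that the 3 arrays of a group are 3 mice, so the p-values measure the spread between these arrays, which may be technical.

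Rb is a pocket protein that binds E2f transcription factors and holds their target genes, many of them needed for DNA replication and mitosis, in check. E2f1, E2f2 and E2f3 are the activating members of the family, and E2f6, E2f7 and E2f8 act as repressors. Villi carry the non-dividing cells of the epithelium, mostly absorptive enterocytes with scattered goblet, enteroendocrine and tuft cells, and the crypts below hold the stem and dividing cells and the Paneth cells.

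The 6 arrays were not alike in every technical respect. The array median was 5.26 on QKO villi 3 and between 5.05 and 5.07 on the other 5, on the log2 scale of the deposited values. Bacterial poly-A control probe sets, which read RNA added during sample preparation, had means of 10.41 to 10.91 on the QKO villus arrays and 9.70 to 9.92 on the TKO villus arrays, and hybridization controls 11.23 to 11.45 against 10.76 to 10.95. The Rb and WT villus arrays had poly-A means of 5.65 to 6.67. The excess of the 3' over the 5' Actb probe set, a sign of RNA integrity and labelling, was 1.03 to 1.31 in QKO villi and 0.72 to 1.03 in TKO villi. All QKO villus arrays and TKO villi 2 and 3 read as male, while TKO villi 1 read as female (Eif2s3y 3.45, Xist 8.73). All WT villus arrays and Rb villi 2 read as female, while Rb villi 1 and 3 read as male (Eif2s3y 9.24 on each). Sex and genotype thus partly coincide in the comparison of Rb-/- with WT villi. What these differences contribute to the results below was not tested, except where a value without QKO villi 3 or with sex in the fit is given. The label of villus was checked against markers: the enterocyte genes Vil1 (13.36 ± 0.18 SD in QKO and 13.43 ± 0.17 in TKO villi, n = 3 each) and Fabp2 (14.40 and 14.62) were present, but so were the crypt stem cell gene Olfm4 (12.12 ± 0.35 and 12.76 ± 0.39, against 13.18 and 13.36 in QKO and TKO crypts) and the Paneth cell gene Lyz1 (13.89 and 14.03, against 14.53 and 14.63 in the crypts).

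In villi the targeted gene followed its label. Rb1 read 8.28, 8.57 and 8.77 on the QKO villus arrays and 10.38, 10.32 and 10.37 on the TKO villus arrays. All 3 QKO arrays lay below all 3 TKO arrays, a log2 difference of -1.82 ± 0.41 (SE; limma, Benjamini-Hochberg adjusted p = 0.0103). In Rb-/- villi it fell by a like amount against WT (-1.66, adjusted p = 0.00776), and the difference between these differences was -0.16 ± 0.58 (adjusted p = 0.893). Signal thus remained on this probe set in QKO villi. A second Rb1 probe set, with a mean of 3.75 over all arrays, differed by 0.158 ± 0.122 (adjusted p = 0.521). Among the crypt arrays, Rb1 read 8.46 on WT crypts 3, against 10.31 and 10.59 on WT crypts 1 and 2. On Rb crypts 2 it read 10.25, against 8.23 and 8.87 on Rb crypts 1 and 3. E2f8 read 10.11 on WT crypts 3 (9.06 and 8.92 on the others) and 9.24 on Rb crypts 2 (10.11 and 10.13 on the others). These 2 arrays entered every pooled SE under their labels, and their part in it was not tested.

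Of the 13 E2f and pocket protein genes measured, 2 fell and 1 rose, with a median difference of -0.15, where 6.68% of all 18193 genes were called in either direction, 5.51% higher and 1.17% lower. Besides Rb1, E2f2 fell (7.12, 7.45 and 7.25 in QKO villi against 7.74, 7.89 and 8.08; -0.63 ± 0.19, adjusted p = 0.0452, and 0.123 without QKO villi 3), although its loss is labelled in both groups. E2f6, a repressor that does not bind Rb, rose by 0.47 ± 0.13 (adjusted p = 0.0307, 0.0664 with arrays centred on their medians and 0.0584 without QKO villi 3). The other activators read -0.10 (E2f1) and -0.23 (E2f3), the Rb-bound repressors -0.08 (E2f4) and -0.05 (E2f5), and the Rb relatives -0.15 (Rbl1) and -0.16 (Rbl2), none of them called. E2f7 and E2f8, repressors that are themselves targets of E2f, rose by 3.11 and 3.10 in Rb-/- villi against WT, and read -0.38 and -0.51 in QKO against TKO villi (adjusted p = 0.344 for E2f8).

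Across all genes, 1215 passed an adjusted p under 0.05 in QKO against TKO villi, 1003 higher and 212 lower in QKO. The predominance of rises depended on how arrays were put on a common scale. With each array centred on its own median, which moved the median difference over all genes from 0.04 to -0.07 (a shift of -0.116), 1265 genes were called, 659 higher (3.62% of genes) and 606 lower (3.33%), so that the share of calls that were rises went from 82.6% to 52.1%, and 871 genes were called both ways. Quantile normalization gave 753 higher and 542 lower (58.1% rises). Single arrays also moved the count: 586 genes were called without QKO villi 3 (440 higher, 2.42%, and 146 lower, 0.803%), 531 without TKO villi 2 and 794 without TKO villi 1. With sex as a covariate 1063 were called, 899 higher and 164 lower. At an unadjusted p under 0.05, 2667 of the 18193 genes were higher and 1083 lower, the background for such counts below. Of all differences, 10472 were positive and 7721 negative. Without a test, the 3 QKO arrays lay wholly above the 3 TKO arrays for 13.5% of genes and wholly below for 6.85%. Directions below are those of the deposited values, and a flip of a list's median under centring is given where there was one. In bulk samples, fewer cells of a type and less RNA per cell cannot be told apart.

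**Figure D1:**
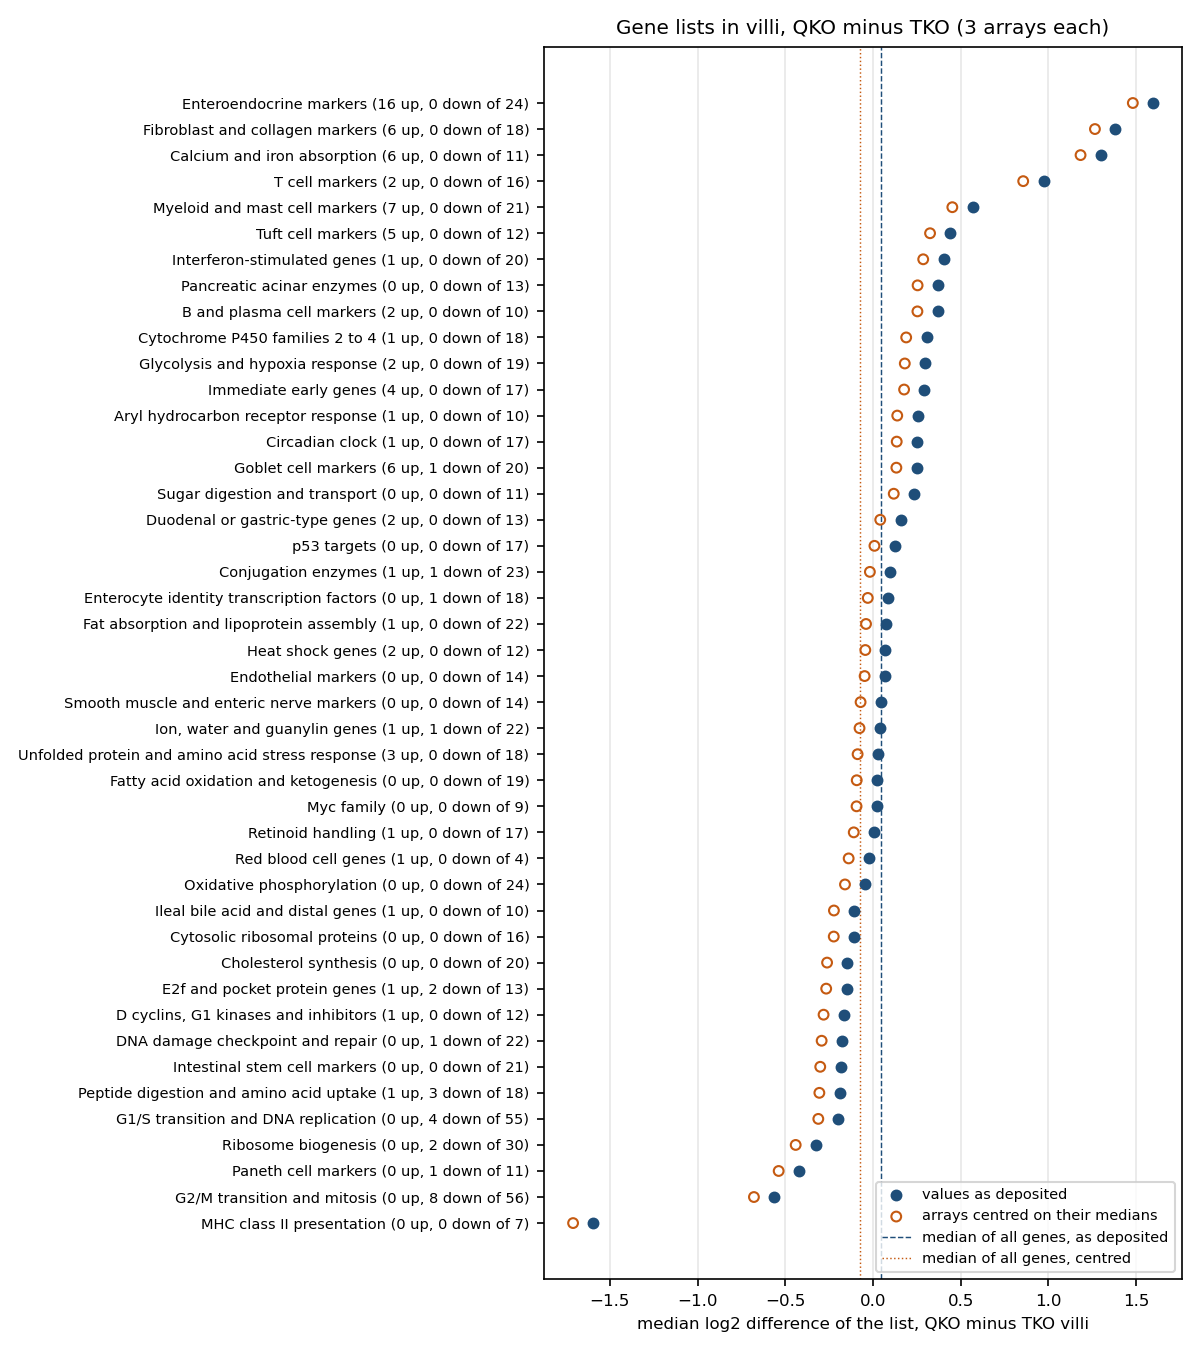
Median log2 difference (QKO minus TKO villi, horizontal axis) of each gene list, with filled points for the values as deposited, open points for arrays centred on their medians, and vertical lines for the medians of all genes; the label gives the members called higher and lower. The enteroendocrine list lies farthest to the right at 1.60, followed by the fibroblast and collagen list at 1.38 and the calcium and iron list at 1.30, and the mitosis list is at -0.56.

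Genes that take calcium and iron from the gut into the body were among the largest rises. Of 11 genes listed for calcium and iron absorption, 6 rose and none fell, with a median difference of 1.30 (1.18 centred, with 6 called higher and 1 lower, and 0.995 without QKO villi 3, again 6 called higher), against 0.04 for all genes. The list's mean level was 10.31, 10.26 and 10.88 on the QKO arrays and 8.99, 8.72 and 8.68 on the TKO arrays.

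For calcium, the entry channel Trpv6 read 8.15, 8.3 and 10.83 in QKO villi against 4.98, 4.86 and 4.75 in TKO villi. QKO villi 3 stood above the other 2, but each was over 3 log2 units above every TKO array. The difference was 4.23 ± 0.40 (adjusted p = 3.57e-06), and 3.36 without QKO villi 3, with the TKO values below the array medians. That SE pools all groups, while the SD of Trpv6 was 1.51 in QKO villi and 0.01 to 0.28 in the other groups. S100g, the calcium carrier of the enterocyte cytoplasm (calbindin-D9k), read 12, 12.2 and 13.37 against 9.26, 8.24 and 6.88. The groups did not overlap, with the TKO arrays spread over more than 2 units, and the difference was 4.39 ± 0.55, 21.0-fold (adjusted p = 6.09e-05). The basolateral calcium pump Atp2b1 rose by 1.30 ± 0.23 (adjusted p = 0.00159). The vitamin D receptor Vdr (0.38) and its target Cyp24a1 (0.23), which breaks vitamin D down, were not called.

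For iron, the ferric reductase of the brush border Cybrd1 read 8.84, 8.2 and 8.52 in QKO villi and 5.71, 5.25 and 5.3 in TKO villi. These values were tight within each group and far apart between them, and the difference was 3.10 ± 0.23 (adjusted p = 5.17e-08). A second Cybrd1 probe set of nearly the same mean level (5.71 against 5.80 over the 24 arrays) gave a larger rise, 5.91 ± 0.47 (adjusted p = 1.24e-07 over all probe sets). Slc40a1 (ferroportin), the iron exporter, read 12, 12.16 and 12.68 against 9.53, 8.6 and 8.66. It rose by 3.35 ± 0.40 on every QKO array, 10.2-fold (adjusted p = 3.45e-05). The apical iron importer Slc11a2 rose by 1.90 ± 0.41 (9.90 ± 1.08 SD against 8.0 ± 0.37, n = 3 each; adjusted p = 0.00783). The transferrin receptor Tfrc, which imports iron from the blood side, read -0.76 (adjusted p = 0.0627, and 0.0382 with arrays centred), and the ferritin chain Fth1 (0.31) and the ferroxidase Heph (0.15) were not called.

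In Rb-/- villi with the E2f genes in place, where 14.8% of genes were called against WT (8.59% higher, 6.19% lower), 1 gene of this list rose and none fell, with a median of 0.07. Trpv6 differed there by 0.07 (adjusted p = 0.936) and Cybrd1 by -0.13 (adjusted p = 0.766). The difference between the differences, (QKO minus TKO) minus (Rb minus WT), was called for 15.4% of all genes, 8.91% higher and 6.52% lower. It was 4.17 ± 0.57 for Trpv6 (adjusted p = 3.17e-05), 3.23 ± 0.32 for Cybrd1 (1.3e-06), 3.31 ± 0.78 for S100g (0.00608) and 2.44 ± 0.57 for Slc40a1 (0.00525), and of the list 4 were called higher and 1 lower.

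**Figure D2:**
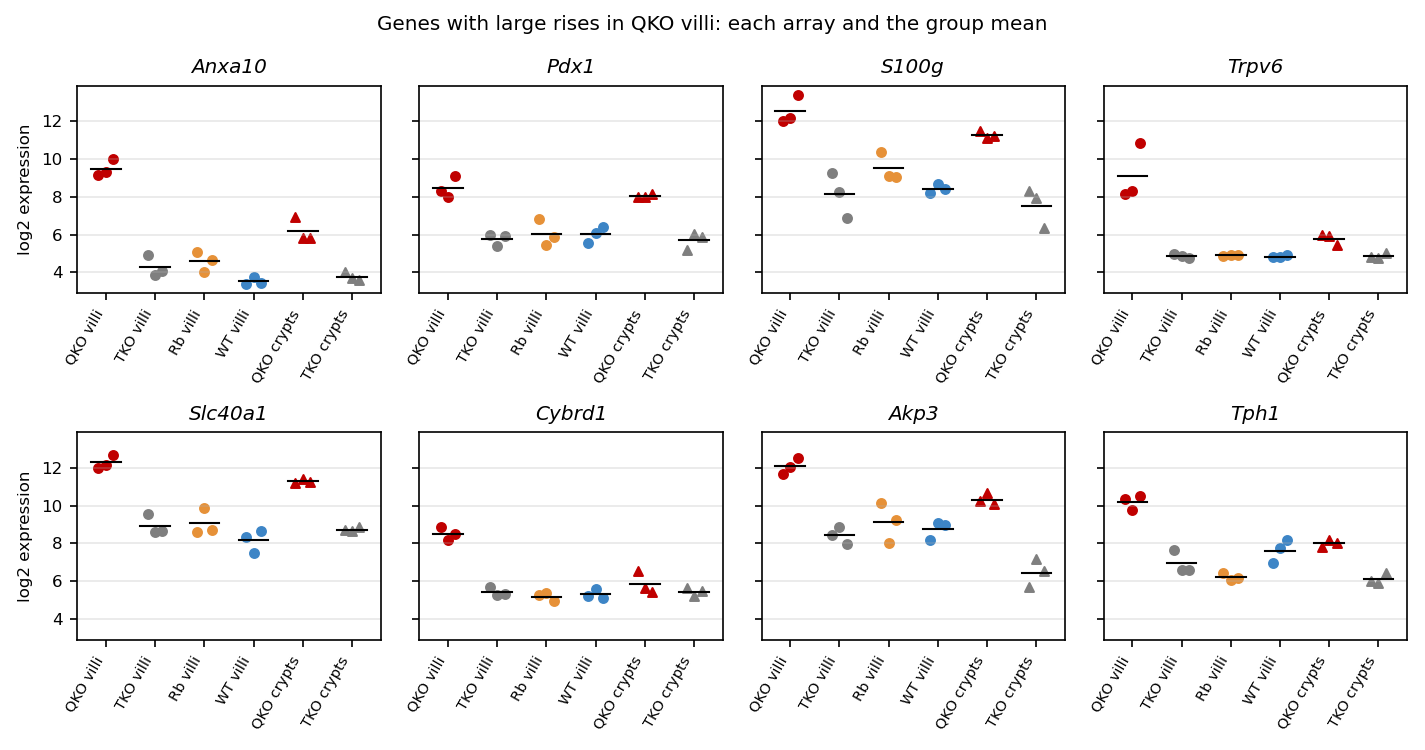
Log2 expression (vertical axis) of genes with large rises in QKO villi, with 1 point per array, a bar at each group mean, and the groups along the horizontal axis. Anxa10, Trpv6 and Cybrd1 stand apart in QKO villi, with lowest QKO villus values of 9.13, 8.15 and 8.2.

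Genes typical of the proximal gut showed single large rises, not a shift of the list. Of 13 duodenal or gastric-type genes, 2 rose and none fell (median 0.16, 0.04 centred and -0.05 without QKO villi 3, where the same count of 2 was called). Anxa10, an annexin of gastric epithelium, read 9.13, 9.33 and 9.99 in QKO villi and 4.9, 3.88 and 4.05 in TKO villi. The rise was 5.21 ± 0.31 (adjusted p = 2.77e-09), with over 4 log2 units between the lowest QKO and the highest TKO array. The TKO values lay below the array medians, so no fold is given, and a dimmer second probe set rose by 1.55 ± 0.20. In Rb-/- villi it also rose against WT, by 1.06 (adjusted p = 0.024), and the 2 differences differed by 4.15 ± 0.44 (adjusted p = 2.33e-06). Pdx1, the homeodomain factor that marks duodenum and pancreas, read 8.33, 7.99 and 9.1 against 5.99, 5.41 and 5.95. It rose by 2.69 ± 0.33, 6.46-fold (adjusted p = 4.38e-05), with no overlap.

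Akp3, an intestinal alkaline phosphatase of the proximal small intestine, read 11.66, 12.03 and 12.52 in QKO villi and 8.45, 8.89 and 7.95 in TKO villi. The rise was 3.64 ± 0.63, 12.5-fold (adjusted p = 0.00154). Its close relative Alpi read 0.36 (adjusted p = 0.398), and a probe set can read near-identical relatives of its gene. Tmprss15, the enterokinase that activates trypsinogen in the duodenum, rose by 2.22 ± 0.50 (8.3, 9.65 and 10.31 against 6.94, 6.69 and 7.98; adjusted p = 0.0104, and 0.0749 without QKO villi 3).

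Of 10 ileal and distal genes, Pyy alone was called, and it rose, with a list median of -0.11. The ileal bile acid binding protein Fabp6 read 4.9, 4.71 and 4.37 in QKO villi and 6.3, 7.24 and 8.13 in TKO villi, without overlap, but its difference of -2.56 ± 0.84 was not called (adjusted p = 0.0744). In the crypts it fell by 3.54 (adjusted p = 0.0344). The sources used here do not give the stretch of intestine that each sample held. Among 18 enterocyte identity transcription factors 1 fell, Cdx2, the intestinal homeodomain factor (9.51, 9.36 and 9.51 against 9.83, 9.9 and 9.94; -0.43 ± 0.11, adjusted p = 0.0201). The 6 values were tightly grouped and did not overlap. The list's median was 0.09, and -0.03 with arrays centred.

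Enteroendocrine genes rose as a broad group. Of 24 markers 16 rose and none fell, 66.7% of the list where 5.51% of all genes rose, with a median difference of 1.60 (16 called and 1.48 centred; 14 called and 1.61 without QKO villi 3). The arrays did not overlap for 17 of the 24, all with QKO higher, where QKO lay wholly above TKO for 13.5% of all genes. The mean level of the 24 genes was 9.07, 8.54 and 8.66 on the QKO arrays and 7.84, 7.4 and 7.15 on the TKO arrays, so the lowest QKO array was above the highest TKO array.

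The rises covered hormones of several enteroendocrine cell kinds. Tph1, which makes serotonin in enterochromaffin cells, read 10.34, 9.74 and 10.49 in QKO villi and 7.65, 6.58 and 6.6 in TKO villi. TKO villi 1 was the highest control and still lay over 2 units below the lowest QKO array, and the difference was 3.25 ± 0.31, 9.5-fold (adjusted p = 3.76e-06). Cck, the hormone of I cells that drives gall bladder contraction, read 11.34, 10.83 and 11.52 against 8.89, 8.35 and 8.85. Its rise of 2.54 ± 0.33 was 5.79-fold (adjusted p = 9.32e-05). Secretin, Sct, read 11.97, 11.29 and 11.93 against 9.84, 9.47 and 9.71 (2.06 ± 0.21, adjusted p = 4.58e-06).

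Peptide YY, Pyy, a hormone of the distal gut, read 8.85, 9.79 and 10.19 against 7.78, 7.8 and 7.38 (1.96 ± 0.35, adjusted p = 0.00172). Ghrelin, Ghrl, rose by 2.11 ± 0.35 (9.36 ± 0.64 SD against 7.24 ± 0.59, n = 3 each; adjusted p = 0.000926), somatostatin, Sst, by 2.10 ± 0.39 (adjusted p = 0.00225), and the incretin Gip by 1.57 ± 0.34 (adjusted p = 0.0076). Genes of the secretory granule rose with the hormones: Scg5 by 2.06, the peptidase Cpe by 1.91, Chgb by 1.85, Scg3 by 1.64, Chga by 1.63 and the prohormone convertase Pcsk1 by 1.15.

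Transcription factors of the lineage were split. Neurod1, which drives differentiation of several hormone cells, read 9.56, 9.02 and 8.99 in QKO villi against 7.68, 6.64 and 6.69 (2.18 ± 0.29, adjusted p = 0.000104). Isl1 rose by 1.28 ± 0.33 and Insm1 by 1.26 ± 0.35 (adjusted p = 0.0202 and 0.0336, and 0.0525 and 0.0625 without QKO villi 3). Neurog3, the factor that starts the lineage, read -0.31 (adjusted p = 0.708), Pax4 -0.09, Pax6 -0.10 and Nkx2-2 0.51. Among the hormones, Gcg, which encodes the glucagon-like peptides, read -0.27 (adjusted p = 0.839), Tac1 -0.60 and Nts 1.41 ± 0.56 (adjusted p = 0.145, its arrays not overlapping).

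With the E2f genes in place, the direction of this list was the other one. In Rb-/- against WT villi, none of the 24 rose and 8 fell, with a median of -0.75, and the list's mean level was 6.68 to 6.80 on the Rb-/- arrays and 7.31 to 7.82 on the WT arrays. Tph1 fell there by 1.40, Cck by 1.58, Ghrl by 1.83, Sst by 1.79 and Gip by 1.76. The difference between the differences was called higher for 16 of the 24 and lower for none (list median 2.42). It was 4.65 ± 0.44 for Tph1 (adjusted p = 9.53e-07) and 4.11 ± 0.47 for Cck (adjusted p = 4.67e-06).

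**Figure D3:**
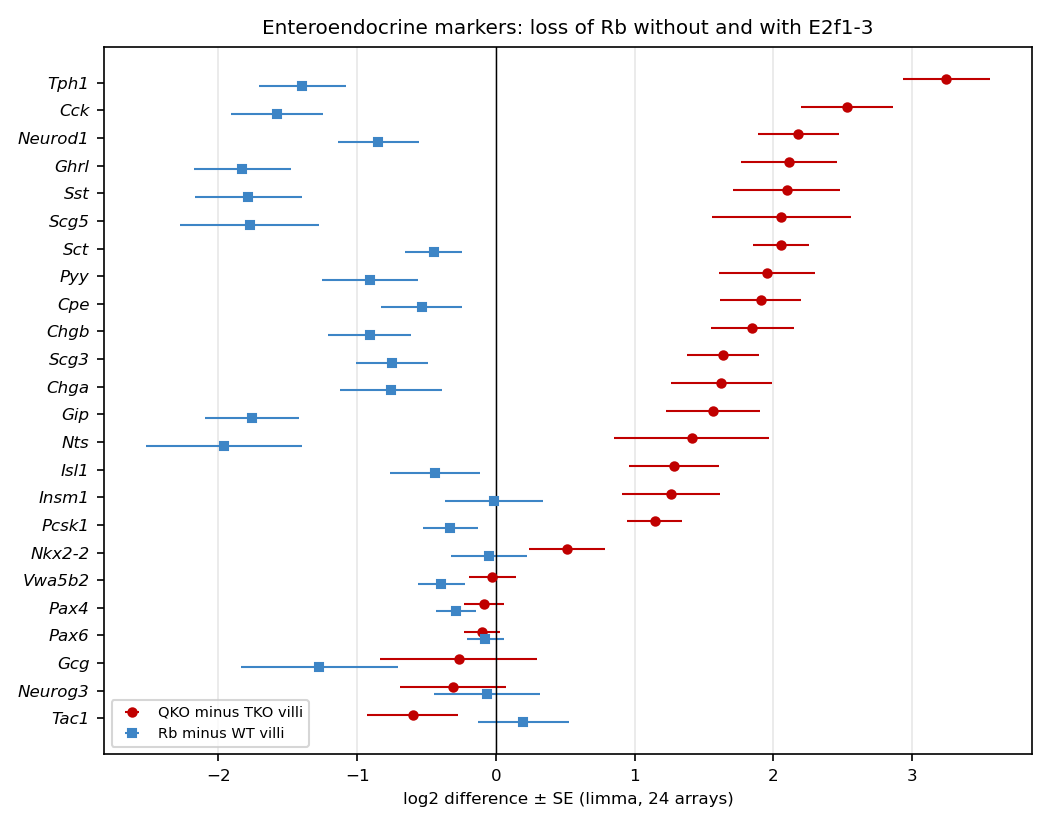
Log2 difference ± SE (horizontal axis) of each of the 24 enteroendocrine markers in QKO against TKO villi (circles) and in Rb-/- against WT villi (squares). In QKO villi 16 rose and none fell, and in Rb-/- villi 8 fell and none rose.

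The bases just before the start of Cck and Sct are shown because these hormone genes rose on every QKO villus array and because E-boxes are the sites that factors such as Neurod1 bind. The 250 bases before each start are given 5' to 3' along the gene, from RefSeq on build GRCm38.p6, with capitals for the E-box letters CAGATG and CAGCTG, searched on both strands. Cck lies at chr9:121495695-121495944 on the minus strand, with a match 30 bases before the start, and Sct at chr7:141279134-141279383 on the minus strand, with matches 132 and 242 bases before it.

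Cck: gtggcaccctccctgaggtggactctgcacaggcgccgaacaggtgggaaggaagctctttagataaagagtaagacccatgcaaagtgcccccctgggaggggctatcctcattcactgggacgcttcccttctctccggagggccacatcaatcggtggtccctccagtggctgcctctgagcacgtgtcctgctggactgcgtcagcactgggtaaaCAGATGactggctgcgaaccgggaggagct

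Sct: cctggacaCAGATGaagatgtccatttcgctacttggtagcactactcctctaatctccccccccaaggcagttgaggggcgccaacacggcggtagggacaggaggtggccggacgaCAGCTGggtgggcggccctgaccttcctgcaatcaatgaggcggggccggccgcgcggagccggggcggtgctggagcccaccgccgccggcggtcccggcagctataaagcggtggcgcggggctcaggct

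In windows of 300 bases, from 250 before to 50 after the start, these letters stood in 12 of the 21 enteroendocrine genes with a sequence (57.1%), in 7 of the 14 of these that rose (50%), and in 33.4% of all 27025 genes' windows. A match describes the letters and says nothing of binding. The letters ACGTG and GCGTG of the hypoxia response element, also searched, stood in 71.4% of the enteroendocrine windows and 46.7% of all, and TTTATG and TTTATTG, bound by Cdx factors, in 9.52% and 17.9%.

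Other secretory lineages moved in smaller numbers. Of 20 goblet cell markers 6 rose and 1 fell, with a median of 0.25 (5 and 1 called, 0.13, centred; 5 and none without QKO villi 3). Gcnt3, a glycosyltransferase that branches mucin sugars, read 9.66, 10.66 and 10.57 in QKO villi against 8.51, 8.91 and 8.49 (1.66 ± 0.29, adjusted p = 0.00172). Muc2, the main mucin, read 12.82, 12.24 and 12.38 against 11.58, 12.13 and 11.35. Replicate 2 of each group nearly met there, and the rise was 0.80 ± 0.19 (adjusted p = 0.0139). Sytl2 (1.17 ± 0.18), Fcgbp (0.82 ± 0.22) and the trefoil peptide Tff3 (0.67 ± 0.15) also rose, and Clca1 rose by 1.14 ± 0.34 (adjusted p = 0.0462, 0.0703 centred and 0.166 without QKO villi 3).

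The goblet gene that fell was the trypsin inhibitor Spink4 (-0.91 ± 0.27, adjusted p = 0.0475, and 0.187 without QKO villi 3). Retnlb, a goblet product induced by microbes, was spread widely among the TKO arrays. It was at 3.72 ± 0.27 (SD, n = 3) in QKO villi and 8.67 ± 4.11 in TKO villi, a difference of -4.95 ± 1.59 that was not called (adjusted p = 0.067).

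Of 12 tuft cell markers 5 rose and none fell, with a median of 0.44 (4 called centred and 4 without QKO villi 3), though 4 of the 12 had levels above the median of all values. Alox5ap, needed for leukotriene synthesis, read 7.74, 8.0 and 8.86 against 6.62, 5.71 and 5.13 (2.38 ± 0.36, adjusted p = 0.000378). Rgs13 (1.94 ± 0.51), Sh2d6 (1.10 ± 0.28), the kinase Dclk1 (1.02 ± 0.28) and Avil (0.79 ± 0.21) rose as well. The tuft cell factor Pou2f3 (-0.05) and the taste channel Trpm5 (-0.03) were not called.

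Of 11 Paneth cell markers 1 fell and none rose (median -0.42): Pla2g2a, a secreted antibacterial phospholipase, read 7.2, 6.03 and 5.89 in QKO villi and 8.36, 8.85 and 6.48 in TKO villi. Its groups overlapped, and the difference of -1.52 ± 0.44 was called (adjusted p = 0.0405), but not without QKO villi 3 (0.17). Ang4 was not called on its chosen probe set (-1.89 ± 0.755, adjusted p = 0.149). A second Ang4 probe set (mean of 10.71 against 11.49 over the 24 arrays) fell by more (-4.44 ± 0.78, adjusted p = 0.0018 over all probe sets). Limma called none of 21 intestinal stem cell markers (3 higher and 2 lower at an unadjusted p under 0.05; 2 lower once centred), with Olfm4 at -0.64 (adjusted p = 0.0666) and a list median of -0.19.

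No gene of the G1/S and mitosis lists passed the test as higher when Rb was lost from villi without E2f1, E2f2 and E2f3. Of 55 genes for entry into S phase and copying of DNA (G1/S genes) none rose and 4 fell (Mcm8, Gins2, Dut and Rpa3), with a median of -0.20 (5 lower and -0.31 centred; 1 lower without QKO villi 3). At an unadjusted p under 0.05, 1 was higher and 9 lower, where 2667 of all 18193 genes were higher and 1083 lower. The list's mean level was 8.39, 8.31 and 8.38 on the QKO arrays and 8.62, 8.69 and 8.28 on the TKO arrays, which overlap. The Rb-/- villus arrays had means of 9.16 to 9.24 and the WT villus arrays 7.30 to 7.41.

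With the E2f genes in place, 54 of the same 55 genes rose in Rb-/- against WT villi, with a median of 1.98. Mcm6, a subunit of the replicative helicase, differed by 2.95 in Rb-/- against WT villi and by 0.17 ± 0.24 in QKO against TKO villi (adjusted p = 0.747). Cdc6, which loads that helicase, differed by 2.74 and by -0.45 ± 0.25 (adjusted p = 0.337). Rrm2, a subunit of ribonucleotide reductase, read 9.58, 9.53 and 9.33 in QKO villi against 9.84, 10.23 and 9.77 in TKO villi (-0.47 ± 0.28, adjusted p = 0.367), where Rb-/- villi exceeded WT villi by 3.82.

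The difference between the differences was called lower for 50 of the 55 and higher for none, with a list median of -2.15. It was -4.29 for Rrm2, -3.19 for Cdc6 and -2.78 for Mcm6. Of the other helicase subunits, in QKO against TKO villi, Mcm2 read 0.20, Mcm3 -0.51, Mcm4 -0.05, Mcm5 -0.36 and Mcm7 -0.13, none called. The replication clamp Pcna read -0.21 there and rose by 2.08 in Rb-/- villi, and cyclin E1, Ccne1, read 0.27 and rose by 2.64. Mcm8, a helicase of DNA repair, was the most clearly lower member (5.62, 5.26 and 5.15 in QKO villi against 6.23, 6.55 and 5.79; -0.84 ± 0.19, adjusted p = 0.00844), without overlap.

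Mcm5, Mcm6 and Cdc6 are shown next because their starts carry the letters that E2f factors bind while their levels did not rise with loss of Rb here. The 250 bases before each start are again from RefSeq on GRCm38.p6, 5' to 3' along the gene, with capitals for TTTCCCGC, TTTCGCGC, TTTGCCGC and TTTGGCGC on either strand, overlapping matches joined. Mcm5 lies at chr8:75109259-75109508 on the plus strand, Mcm6 at chr1:128359706-128359955 on the minus strand and Cdc6 at chr11:98907901-98908150 on the plus strand. Matches stood 149 and 153 bases before the start of Mcm5, 47, 106 and 110 before that of Mcm6, and 138 before that of Cdc6.

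Mcm5: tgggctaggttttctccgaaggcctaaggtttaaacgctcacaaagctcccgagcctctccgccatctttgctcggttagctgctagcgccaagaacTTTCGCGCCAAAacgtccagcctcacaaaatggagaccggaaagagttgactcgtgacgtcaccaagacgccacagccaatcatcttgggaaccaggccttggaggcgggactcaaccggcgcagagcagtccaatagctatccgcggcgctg

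Mcm6: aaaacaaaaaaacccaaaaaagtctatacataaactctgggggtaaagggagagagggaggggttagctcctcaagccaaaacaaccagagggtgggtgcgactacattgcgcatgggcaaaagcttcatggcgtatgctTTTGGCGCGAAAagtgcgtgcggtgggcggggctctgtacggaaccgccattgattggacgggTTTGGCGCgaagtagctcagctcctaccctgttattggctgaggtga

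Cdc6: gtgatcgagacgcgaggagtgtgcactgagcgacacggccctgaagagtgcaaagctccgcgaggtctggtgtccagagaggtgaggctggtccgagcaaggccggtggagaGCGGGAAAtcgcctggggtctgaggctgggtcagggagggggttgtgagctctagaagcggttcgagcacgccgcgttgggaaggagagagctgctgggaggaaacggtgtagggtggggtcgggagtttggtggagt

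Over windows of 300 bases, 19 of 46 G1/S genes with a sequence held these letters (41.3%), as did 5 of 46 mitosis genes (10.9%), none of 21 enteroendocrine genes and 2.6% of all 27025. The 19 G1/S genes with the letters had a median difference of -0.18 in QKO against TKO villi and 2.28 in Rb-/- against WT villi, and the 27 without them -0.21 and 1.84. In the QKO comparison 1 of the 19 and 2 of the 27 fell.

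Of 56 genes of G2 and mitosis, none rose and 8 fell (13 centred, 1 without QKO villi 3), 14.3% of the list where 1.17% of all genes fell, and 55 of the 56 differences were negative (median -0.56, and -0.68 both centred and without QKO villi 3). Over all genes, 7721 of 18193 differences were negative. For 21 of the 56, all QKO arrays lay below all TKO arrays, as they did for 6.85% of all genes. The list's mean level was 6.9, 7.31 and 7.45 on the QKO arrays and 7.79, 8.0 and 7.48 on the TKO arrays, so that QKO villi 3 and TKO villi 3 nearly met. Other lists typical of crypts were spread over the arrays as follows: Paneth cell markers had mean levels of 9.96, 9.34 and 9.62 in QKO villi against 10.53, 10.81 and 9.16 in TKO villi, stem cell markers 7.88, 7.7 and 7.53 against 8.03, 8.0 and 7.43, and ribosome biogenesis genes 8.53, 8.26 and 8.06 against 8.78, 8.81 and 8.31. TKO villi 3 was the lowest TKO array for each of these lists and for mitosis. The part of crypt cells in the mitosis difference was not tested. Kif23, a kinesin of cytokinesis, read 6.83, 7.05 and 6.83 against 7.54, 7.77 and 7.5 (-0.70 ± 0.17, adjusted p = 0.0128, and 0.0561 without QKO villi 3). Cyclin A2, Ccna2, fell by 0.88 ± 0.24 (adjusted p = 0.0275) and the kinase Nek2 by 1.05 ± 0.30 (adjusted p = 0.0407), both not called without QKO villi 3 (0.165 and 0.0514). Survivin, Birc5, fell by 0.76 ± 0.20 and was the 1 called without that array (adjusted p = 0.0253, and 0.0409 without it).

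In Rb-/- against WT villi 52 of the 56 rose and 1 fell (median 1.83), and the difference between the differences was lower for 53 and higher for none (median -2.52). The mean level of the list was 8.38 to 8.58 on the Rb-/- arrays and 6.53 to 6.78 on the WT arrays. These levels are set beside arrays whose poly-A controls differed by several log2 units, so a difference between the sets of arrays and one between genotypes cannot be told apart, and the tested values are the differences within each set. The proliferation genes Pclaf and Ncapg2 were among the largest falls of this kind, at -4.01 and -3.99, from 3.29 and 3.64 in Rb-/- against WT villi to -0.72 and -0.36 in QKO against TKO villi. A second, dimmer Pclaf probe set fell in QKO against TKO villi (-2.22 ± 0.58, adjusted p = 0.0254 over all probe sets).

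**Figure D4:**
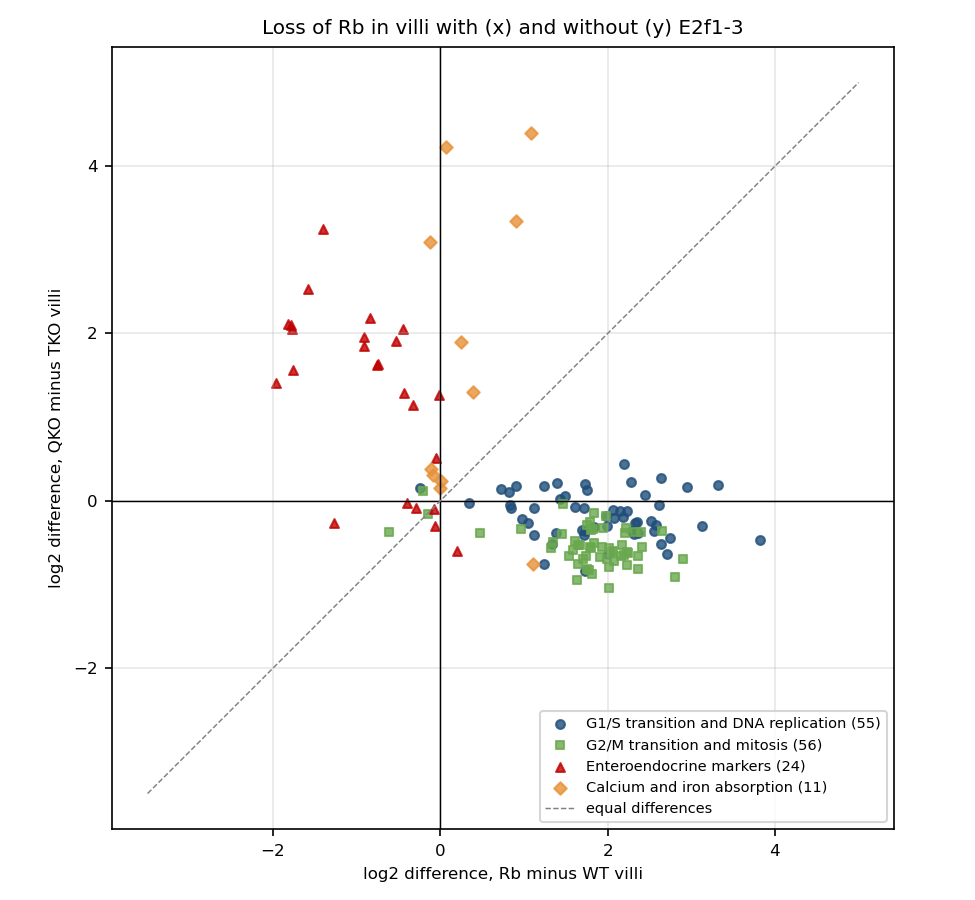
Each point is a gene, with its log2 difference in Rb-/- against WT villi on the horizontal axis and in QKO against TKO villi on the vertical axis; the dashed line marks equal differences. Cell cycle genes lie far to the right near or below 0 (list medians of 1.98 and -0.20 for G1/S, 1.83 and -0.56 for mitosis), while enteroendocrine and calcium and iron genes lie high.

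Related lists held few called genes. Of 22 DNA damage and repair genes 1 fell, Rad54l of homologous recombination (-0.86 ± 0.22, adjusted p = 0.0238; 0.118 without QKO villi 3), with a median of -0.18, and the difference between the differences was lower for 18. Of 30 ribosome biogenesis genes 2 fell, Ftsj3 (-0.75) and Nop16 (-0.89), 6.67% of the list where 1.17% of all genes fell. Of the 30 differences 29 were negative, with a median of -0.33, and 15 genes rose in Rb-/- against WT villi. At an unadjusted p under 0.05, 10 were lower and none higher, where 1083 of all 18193 genes were lower and 2667 higher. Without QKO villi 3 none of the list was called. Of 12 D cyclins, G1 kinases and inhibitors 1 rose, Ccnd3 (0.66 ± 0.18, adjusted p = 0.033, 0.0622 centred and 0.159 without QKO villi 3). Limma called none of 17 p53 targets (1 higher at an unadjusted p under 0.05; median 0.12) and none of 9 Myc family genes (none at an unadjusted p under 0.05; median 0.02, and -0.09 centred). This holds for the chosen probe sets. Dimmer ones were called for Mycn (-1.14, adjusted p = 0.0307 over all probe sets) and Mxd4 (0.695, adjusted p = 0.0171).

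Nutrient transport and digestion genes other than those of calcium and iron changed singly. Among 18 genes of peptide digestion and amino acid uptake 1 rose and 3 fell (median -0.19). Slc7a8, the basolateral exporter of neutral amino acids, read 8.87, 8.51 and 8.25 in QKO villi against 10.42, 10.6 and 9.89. It was lower on every QKO array by over 1 unit (-1.76 ± 0.21, adjusted p = 2.91e-05). The peptidases Xpnpep2 (-1.24, adjusted p = 0.0188, 0.0519 without QKO villi 3) and Naaladl1 (-1.18, adjusted p = 0.0123) fell too, and the rise was Tmprss15. Without QKO villi 3 none of the list was called higher and 2 lower.

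Car4, the membrane carbonic anhydrase of the brush border, read 9.71, 8.75 and 8.27 in QKO villi and 11.03, 11.67 and 11.47 in TKO villi. With no overlap it fell by 2.48 ± 0.34 (adjusted p = 0.000129), and Car9, of the same enzyme family, rose by 0.78 (adjusted p = 0.0389, 0.0619 centred and 0.125 without QKO villi 3). They were the 2 called genes of 22 for ions, water and guanylin (median 0.04, -0.08 centred). Of 22 genes of fat absorption Scarb1, a lipid receptor, alone was called (1.66, adjusted p = 0.0247; 0.123 without QKO villi 3), with a list median of 0.08 (-0.04 centred).

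Limma called none of 11 sugar genes (3 higher at an unadjusted p under 0.05; median 0.23), with the fructose transporter Slc2a5 at 1.01 (adjusted p = 0.0517) and Fbp1 at 0.95 (0.0528). None was called of 19 genes of fatty acid oxidation (none at an unadjusted p under 0.05; median 0.02, -0.09 centred), 20 of cholesterol synthesis (2 higher and 2 lower), 24 of oxidative phosphorylation (1 lower) or 16 cytosolic ribosomal proteins (none). Rbp4, the plasma carrier of retinol, was the 1 called of 17 retinoid genes (9.77, 8.77 and 8.77 against 6.93, 6.24 and 6.21). It rose by 2.64 ± 0.32 in QKO against TKO villi (adjusted p = 4.1e-05) and read -1.28 in Rb-/- against WT villi, while the list's median was 0.01 (-0.11 centred).

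Since every mouse had received an agonist of the aryl hydrocarbon receptor, genes of that response were read as well. The receptor gene Ahr read 8.49, 9.19 and 9.44 in QKO villi and 8.02, 8.13 and 7.9 in TKO villi (1.03 ± 0.20, adjusted p = 0.00415). Its classic target Cyp1a1 varied widely, at 9.19, 10.79 and 10.78 against 8.52, 9.41 and 7.99. The groups overlapped, and the difference of 1.62 ± 0.96 was not called (adjusted p = 0.359). Ahr was the 1 called of 10 genes of the response (median 0.25). A dimmer second Ahr probe set (mean of 5.69 against 8.45 over the 24 arrays) was not called (0.19 ± 0.14, adjusted p = 0.505 over all probe sets). Of 18 cytochrome P450 genes of families 2 to 4 Cyp3a44 rose (1.41, adjusted p = 7.48e-05), and of 23 conjugation enzymes Gsta4 rose (1.54, adjusted p = 0.04, 0.0555 centred) and Mgst2 fell (-0.70, adjusted p = 0.00799, 0.0545 without QKO villi 3). The conjugation list had a median of 0.10 (-0.02 centred, with none called higher and 2 lower).

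Stress and metabolic response genes rose in small numbers, partly through 1 array. Of 17 immediate early genes 4 rose: Egr2 (1.0), Egr1 (1.33), Dusp1 (1.44) and Atf3 (1.57). The list's mean was 8.11, 8.71 and 9.31 on the QKO arrays and 8.13, 8.29 and 8.37 on the TKO arrays, highest on QKO villi 3. Without that array Egr2 alone was called and the median went from 0.29 to -0.02, and centred 3 were called (Dusp1 at 0.0533). Of 18 genes of the unfolded protein response 3 rose (Atf3, Ddit3 and Ppp1r15a), none without QKO villi 3, and the median was 0.03 (-0.09 centred).

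The small heat shock protein gene Hspb1 read 7.85, 8.0 and 7.81 in QKO villi and 6.4, 6.28 and 5.74 in TKO villi. It rose by 1.75 ± 0.18 (adjusted p = 4.59e-06), and with Serpinh1 (0.95, adjusted p = 0.0497, 0.0765 centred and 0.233 without QKO villi 3) was 1 of 2 rises among 12 heat shock genes (median 0.07, -0.04 centred). Of 19 genes of glycolysis and hypoxia response 2 rose, hexokinase Hk1 (1.07, adjusted p = 0.00481) and the glucose transporter Slc2a1 (0.76, adjusted p = 0.0157), with a median of 0.30. Of 17 clock genes Bhlhe40 rose (0.74, adjusted p = 0.047), not so centred (0.0875) or without QKO villi 3 (0.236).

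Markers of cells other than the epithelium also differed between the 2 groups of villi. Of 18 fibroblast and collagen genes 6 rose and none fell (median 1.38; 5 called and 1.27 centred; 2 called, Vim and Dcn, without QKO villi 3). Their mean level was 5.88, 7.12 and 7.61 on the QKO arrays and 5.59, 5.79 and 5.47 on the TKO arrays, so QKO villi 1 stood close to the TKO arrays. Collagen III, Col3a1, read 7.94, 11.31 and 11.39 against 6.54, 7.1 and 5.57 (3.81 ± 1.07, adjusted p = 0.0346, and 0.155 without QKO villi 3). Its group means in crypts were 9.45 in QKO and 8.88 in TKO, between the villus means of 10.21 and 6.40, and none of the 18 genes was called in the crypts, where 1.61% of genes were called (1.42% higher, 0.181% lower). Vim, the intermediate filament of mesenchyme, rose on every array (8.86, 9.52 and 9.76 against 7.4, 7.4 and 8.1; 1.75 ± 0.32, adjusted p = 0.00196).

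Of 21 myeloid and mast cell genes 7 rose and none fell (median 0.57; 2 called without QKO villi 3), with mean levels of 5.46, 6.12 and 6.59 in QKO villi against 5.24, 5.5 and 5.57. The immune receptor adaptors Fcer1g (9.11, 8.69 and 10.16 against 7.27, 7.05 and 7.45; 2.06, adjusted p = 0.000926) and Tyrobp (1.96, adjusted p = 0.00284) were the 2 that held without that array. Of 16 T cell genes 2 rose, Cd3e (1.29, adjusted p = 0.00896) and Cd3d (1.25, adjusted p = 0.0333), neither of them without QKO villi 3 (0.0685 and 0.156). The list's mean was 8.7, 8.44 and 9.16 against 7.63, 7.69 and 8.47, and its median 0.97. Of 10 B cell genes 2 rose, Blnk (0.78) and Cd79b (0.94), and 1 of 4 red cell genes did, Alas2 (1.32). Without QKO villi 3, 1 B cell gene (Blnk, adjusted p = 0.0202) and no red cell gene was called.

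Limma called none of 14 endothelial genes (1 higher at an unadjusted p under 0.05; median 0.07, -0.05 centred) and none of 14 smooth muscle and enteric nerve genes (1 higher; 0.05, and -0.07 centred). Of 7 MHC class II genes none was called (1 lower at an unadjusted p under 0.05), though the median was -1.59. Their mean level was 7.83, 7.56 and 9.84 in QKO villi and 8.39, 10.62 and 10.66 in TKO villi, so the groups overlapped. Of 20 interferon-stimulated genes Ifit3 rose (1.49, adjusted p = 0.0356; 0.0514 centred and 0.214 without QKO villi 3), with a list mean of 7.91, 8.87 and 9.96 against 7.95, 8.6 and 8.58. None of 13 pancreatic acinar enzymes was called in villi (2 higher at an unadjusted p under 0.05; median 0.37), but 9 were higher in QKO crypts (median 2.08). The part of these cells in the rises of other lists was not tested.

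**Figure D5:**
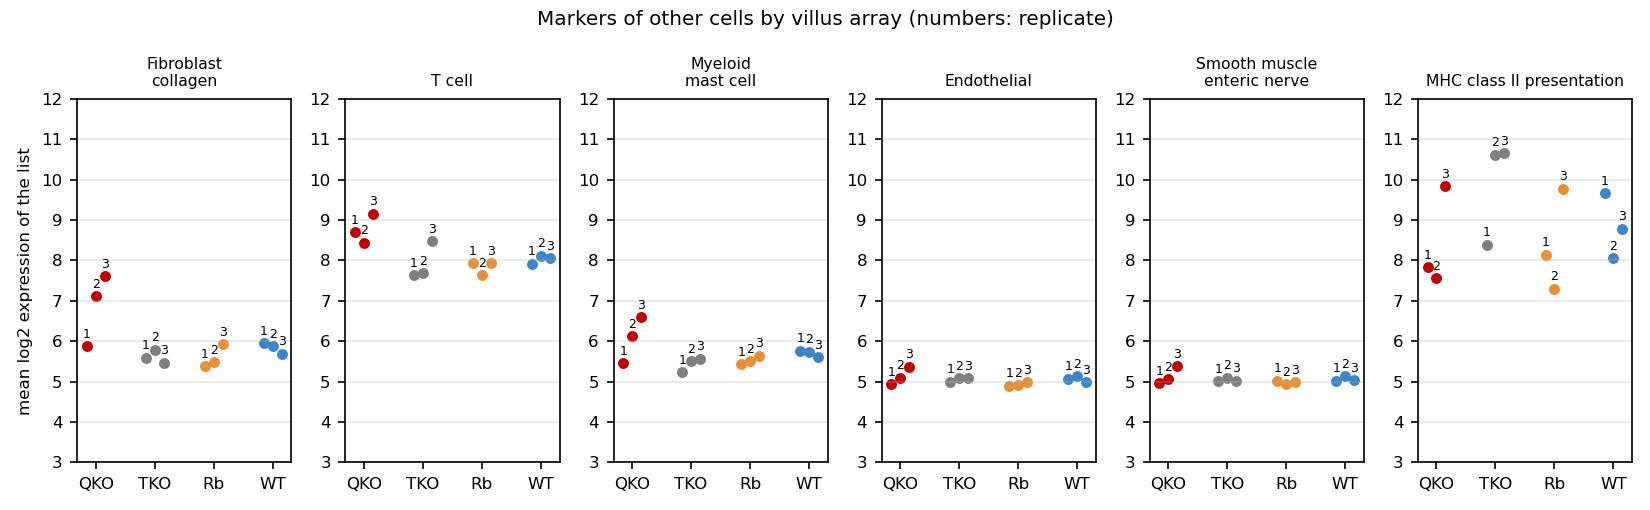
Mean log2 expression (vertical axis) of marker lists of other cells on each villus array of the 4 genotypes, with the replicate number at each point. In the fibroblast panel QKO villi 2 and 3 (7.12 and 7.61) stand above QKO villi 1 (5.88) and the TKO arrays (5.47 to 5.79).

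Several of the largest changes belonged to none of these groups. Of the falls, St3gal4, a sialyltransferase, read 4.71, 5.22 and 5.65 in QKO villi against 12.33, 12.76 and 12.84 in TKO villi. The QKO values lay near or below the array medians, so no fold is given. The difference was -7.45 ± 1.43 (adjusted p = 0.00327), and it was as large in the crypts (-7.26, adjusted p = 0.012). The WT villus arrays read 12.5, 5.78 and 12.57, so a low value also occurred in a wild-type sample. The SE, pooled over all groups, carries that spread. Which C57BL/6 or FVB alleles each mouse carried was not given in the sources used here, and their part in this difference was not tested. Ear3, a ribonuclease gene of a family with near-identical members that 1 probe set may read together, was the mirror case: 7.28, 8.02 and 7.46 in QKO villi against 3.26, 3.37 and 3.15 (4.33 ± 0.29, adjusted p = 1.02e-08). It was at 8.89 in Rb-/- and 8.84 in WT villi, and its difference in crypts was 5.68.

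Among other rises, Ambp, which encodes a plasma protein precursor, read 9.91, 9.06 and 9.46 against 7.37, 5.93 and 5.84 (3.10 ± 0.36, adjusted p = 2.91e-05). Serpina1c, an antitrypsin gene with near-identical copies, rose by 2.99 ± 0.47 (9.61, 8.0 and 9.14 against 7.27, 5.25 and 5.26; adjusted p = 0.000662). In Rb-/- against WT villi Ambp read -1.91 and Serpina1c -2.35, and the differences between the differences were 5.01 and 5.33. The sugar phosphate transporter Slc37a2 rose by 2.97 and the receptor Gpr151 by 2.79, with no overlap.

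Capn3, a calpain protease (8.16, 7.9 and 8.57 against 5.61, 5.72 and 5.74; 2.52 ± 0.27, adjusted p = 7.68e-06), Exd1 (8.2, 7.73 and 7.98 against 5.0, 4.96 and 5.27; 2.89 ± 0.28, adjusted p = 3.76e-06) and Tmem87a (9.4, 9.01 and 9.42 against 6.63, 6.37 and 6.55; 2.76 ± 0.61, adjusted p = 0.00865) all lie on chromosome 2. So does Ccdc32, which fell (8.45, 8.13 and 7.62 against 9.37, 9.67 and 9.87; -1.57 ± 0.25, adjusted p = 0.000606). Each of the 4 had non-overlapping arrays. A second Capn3 probe set of nearly the same mean level (5.77 against 5.81 over the 24 arrays) was not called. It differed by 0.55 ± 0.21 (adjusted p = 0.13 over all probe sets). Of the 1407 genes tested on that chromosome 92 were called (6.54%), a share near that of all genes. Positions along the chromosome were not compared, so this share does not describe neighbouring genes.

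Among other falls, Ang, a secreted ribonuclease, read 6.37, 5.8 and 6.23 in QKO villi and 9.57, 9.19 and 9.73 in TKO villi. It fell by 3.36 ± 0.37, 10.3-fold (adjusted p = 1.6e-05), and by 3.54 and 1.25 on its other probe sets. Like those of Akp3, these probe sets may read near-identical relatives of the gene. Ang was at 6.68 in Rb-/- and 7.03 in WT villi, so the TKO villi, with a mean of 9.49, stood above the other 3 genotypes. Another ribonuclease, Rnase1, fell by 1.48 ± 0.27 (7.32, 6.84 and 6.34 against 8.72, 8.24 and 7.97; adjusted p = 0.00227). Both lie on chromosome 14, as does Rb1, and 55 of its 647 genes were called (8.5%, with 42 higher and 13 lower). Positions along it were not compared either.

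Other falls whose arrays did not overlap were the brush border phospholipase Plb1 (-2.97, adjusted p = 0.03, and 0.0785 without QKO villi 3), Dnase1 (-2.34, 0.0369), the phosphate transporter Slc34a2 (-2.24, 0.0467, and 0.0726 without that array), the potassium channel Kcnj13 (-2.01, 0.00813), Pm20d1 (-1.85, 0.0205), the neonatal Fc receptor Fcgrt (-1.78, 0.0397, and 0.221 without that array) and Slc5a4b of the sugar cotransporter family (-1.71, 0.00796). Slc34a2 and Dnase1 were much lower on QKO villi 1 than on the other QKO arrays (7.14 and 9.04 there, against 9.71 and 9.27, and 11.71 and 12.37). Bcl2l15, a relative of the apoptosis regulator Bcl2, fell by 2.17 ± 0.50 (adjusted p = 0.0119).

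In crypts of the same genotypes, 292 genes were called between QKO and TKO, 259 higher and 33 lower. The difference between villi and crypts was itself called for 11 genes, 0.0605% of those tested, with all 11 higher in villi (0.0605%) and none lower (0.0%). At an unadjusted p under 0.05, 1695 genes passed limma's test. The 11 were Anxa10, Capn3, Ctla2b, Cybrd1, Gsdma, Hspb1, Rgs10, Sct, Stat4, Trpv6 and Tuba1a. Crypts and villi of the same title number deviated together from their group means (correlations of 0.25 to 0.55 in QKO and 0.55 to 0.64 in TKO), and with genotype and number as a random block 71 genes were called, 61 higher and 10 lower, among them all 11. Single arrays moved this count between 4 (without TKO villi 2) and 94 (without QKO villi 1), with 6 without TKO crypts 1, 18 without TKO crypts 2, 21 without QKO crypts 2, 22 without TKO villi 3 and 63 without QKO villi 2.

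Iron and calcium entry genes were among the most villus-weighted. Cybrd1 differed by 0.43 in crypts (6.53, 5.62 and 5.44 against 5.61, 5.21 and 5.48), and its villus minus crypt difference was 2.67 (adjusted p = 0.000689). Trpv6 differed by 0.92 in crypts (5.99, 5.91 and 5.47 against 4.81, 4.78 and 5.02), and the excess in villi was 3.31 (adjusted p = 0.0221). S100g and Slc40a1 rose in both compartments, by 3.72 and 2.58 in crypts, so that 5 of the 11 calcium and iron genes rose there.

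Sct was the enteroendocrine gene called higher in villi than in crypts (1.75, adjusted p = 0.0169), and in crypts 1 of the 24 markers rose, Tph1 (1.89, adjusted p = 0.00274), with a list median of 0.55. Anxa10 rose in crypts too (2.41), by 2.80 less than in villi (adjusted p = 0.0101). Hspb1 (-0.28 in crypts) and Capn3 (0.07) had excesses of 2.03 and 2.45 in villi (adjusted p = 0.000689 and 0.00934). Pdx1 (2.37) and Akp3 (3.87) rose by like amounts in crypts. The G1/S and mitosis lists had no called gene in crypts, with medians of 0.17 and 0.03.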

How the data were processed

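Expression was measured on 24 Affymetrix arrays, 3 for each of 8 groups, assigned from the labels. Each deposited value is a log2 expression level of 1 probe set. The authors' summary and normalization steps were not given in the sources used here. Values run from 2.29 to 14.9 and were used as deposited, with no filter and no offset. The number of arrays limits the precision. The platform annotation gives 1 gene for 34945 of 45101 probe sets, several for 932 and none for 9160, and 64 are controls. Symbols of 34741 were updated through Entrez identifiers, and each of 18193 genes was represented by its probe set with the highest mean over the 24 arrays.

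Tests used limma 3.58.1 (R 4.3.3): 1 mean per group over all 24 arrays, so that an SE pools the spread of all groups, with 2-sided moderated tests, a trend with intensity (16 residual and 4.86 prior degrees of freedom) and Benjamini-Hochberg adjustment over 18193 genes. Genes with an adjusted p below 0.05 were called. Fold values are 2 to the power of the log2 difference. The difference between QKO and TKO villi was the main contrast, and its difference from the same step in crypts, and from Rb minus WT in villi, were contrasts of the same fit. The fit was tested on simulated data for the main contrast over 18193 genes. It recovered 26.9% of 67 changes of 0.5, 85.1% of 67 changes of 1 and 97.0% of 66 changes of 2. It called 0.0445% of unchanged genes. These rates describe the simulated data only. Whether they hold for the deposited values, whose array medians differed, was not tested. Replicate arrays correlated at 0.9795 to 0.9943 and no 2 were identical. QKO and TKO villi of the same number did not deviate together in every pair (correlations of 0.38, 0.03 and 0.27), so numbers were not used as a pairing there. They did pair crypts with villi within QKO and within TKO, by these values and not by the labels.

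The comparison, the 45 gene lists and the rules were chosen with earlier results of these data known. Named genes were the 15 largest called rises and 15 largest falls among genes whose arrays do not overlap and whose brighter group exceeds 6.39, the median over all values (predicted, Riken and sex-linked genes left out), up to 4 members of each list by p, all called members of lists with 4 or fewer called, Rb1, Rbl1, Rbl2, E2f1 to E2f8, Tfdp1 and Tfdp2, and 5 each way for each contrast of contrasts. Other genes were chosen after their values were seen. Promoter sequences come from RefSeq on GRCm38.p6. Alternatives were other scalings, filters, probe set rules, fits and left-out arrays. Figures were drawn with matplotlib 3.10.9.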

Additional observations from a re-analysis of the deposited data

Results flagged for a closer look

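The effect of Rb loss in villi lacking E2f1, E2f2 and E2f3 differed from that in crypts of the same genotypes for 11 genes, by a test of the difference itself. Among the genes named by rule these were Trpv6 (3.31), Anxa10 (2.80), Cybrd1 (2.67), Capn3 (2.45) and Hspb1 (2.03), each higher in villi by that log2 difference. A second Capn3 probe set was not called in QKO against TKO villi (0.55, adjusted p = 0.13 over all probe sets).

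The effect differed from that of Rb loss in villi with the E2f genes in place for 2808 genes, 1621 higher and 1187 lower, by the same kind of test. Higher in the E2f-deficient villi were Serpina1c (5.33), Ambp (5.01), Tph1 (4.65), Ear3 (4.28), Foxq1 (4.17), Trpv6 (4.17), Anxa10 (4.15), Exd1 (3.60), Slc37a2 (3.39), S100g (3.31), Akp3 (3.24), Tmem87a (3.23), Cybrd1 (3.22), Gpr151 (3.09) and Slc40a1 (2.44). Lower were St3gal4 (-10.49), Gsdmc2 (-5.44), Rrm2 (-4.29), Pclaf (-4.01), Ncapg2 (-3.99), Bcl2l15 (-3.42), Ang (-3.01), Kcnj13 (-2.65), Car4 (-2.15) and Ccdc32 (-1.09). The St3gal4 value includes a Rb minus WT difference of 3.04 that was not called (adjusted p = 0.172). It rests on 1 low array, WT villi 2 (5.78, against 12.5 and 12.57 on the other WT villus arrays). For Rrm2, Pclaf and Ncapg2 the difference came with rises in Rb-/- against WT villi and no call of the chosen probe set in QKO against TKO villi; a second Pclaf probe set was called lower there (-2.22, adjusted p = 0.0254). Foxq1 and Gsdmc2 were called between QKO and TKO villi (1.83 and -2.80), with arrays that overlapped. A second Foxq1 probe set of a similar mean level (6.20 against 6.41) was not called there (0.57, adjusted p = 0.368 over all probe sets).

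Bacterial poly-A control probe sets, outside the gene measurements, were higher on the QKO than on the TKO villus arrays by 0.94 on average.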

How the results depend on the processing

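The count of genes called between QKO and TKO villi (1215) became 1895 with every probe set tested, 653 without QKO villi 3 and QKO crypts 2 together, 534 with only the 12 arrays of TKO and QKO and 145 with only the 6 arrays compared (fewer arrays to estimate the spread); single arrays left out gave 531 to 1607. Chosen after seeing the data, centring on medians without QKO villi 3 gave 619. The count for villi minus crypts (11) became 17 by quantile normalization, 25 centred, 3 with dim genes removed, 19 with every probe set, 26 with array weights, 23 without both arrays named above, 2 with the 12 arrays, 71 with the random block and 19 with centring without QKO villi 3, and 4 to 94 with single arrays left out. Removal of dim genes left 9161 genes to test, and Anxa10, Trpv6, Cybrd1 and Capn3 of the 11 were not among them. The count for the difference from Rb minus WT (2808) became 4564 with every probe set, 2577 with sex as a covariate, and 2041 to 3410 with single arrays left out. With the replicate number as a block the counts were 1329, 18 and 3087. In QKO against TKO villi, numbers 1 and 3 deviated most with their own number (correlations of 0.38 and 0.27) and number 2 did not (0.03). Whether those numbers pair the samples there was thus not settled. The cause of these changes was not tested. Of 97 called genes named by rule, none changed direction and 33 kept their call in every setting that tested them. Among the 33 were Anxa10, Trpv6, S100g, Slc40a1, Cybrd1, Pdx1, Akp3, Tph1, Cck, Sct, Neurod1, Pyy, Hspb1, Rb1, Vim, Car4, Slc7a8, Ang and St3gal4. Genes removed as dim, such as Anxa10, Trpv6 and Cybrd1, were not tested in that setting, so it says nothing of their calls. Calls were lost by 47 without TKO villi 2, 40 without QKO villi 3, 32 without TKO villi 1, 18 with sex as a covariate and 9 centred. Of 118 uncalled genes 41 were called in at least 1 setting.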
